A study of Mus musculus with 16 samples.

Results

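Integrins are receptors made of 1 alpha and 1 beta subunit that span the membrane, bind matrix proteins or proteins on other cells, and couple them to actin through talin, kindlin and their partners. The pairing decides the ligand. Subunits alpha5, alphav, alpha8 and alphaIIb serve receptors for proteins with the RGD tripeptide such as fibronectin and vitronectin, alpha1, alpha2, alpha10 and alpha11 serve collagen receptors, and alpha3, alpha6 and alpha7 laminin receptors, while the alphaL, alphaM, alphaX, alphaD and alphaE subunits belong to leukocytes. Syndecans are transmembrane proteoglycans whose heparan sulfate chains bind matrix proteins and growth factors alongside integrins.

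The 30 genes of this family (18 alpha subunits, 8 beta subunits and 4 syndecans) were matched by symbol to the 54453 genes of the deposited table, and all 30 had a value in all 16 lines. Total RNA-sequencing had been done on immortalised mouse embryonic fibroblasts (MEFs), made from sibling C57BL/6J embryos at embryonic day 13.5 and passaged through crisis until they grew on. They comprised the parental lines MEF-1 (a male embryo) and MEF-2 (a female embryo), with 1 library each, and 7 “clonal” lines of each, every one grown from 1 sorted cell and taken, like the parental lines, at 75% confluency. None of the lines carried an engineered allele or received a treatment. Each set of clonal lines descends from 1 embryo and 1 immortalised culture, so that sex, embryo and immortalisation cannot be told apart in any difference between MEF-1 and MEF-2, and p-values measure the spread between clonal lines of 1 culture.

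Expression is given as the authors' regularised log (rlog), the log2 of a normalised count shrunken towards the average of the gene, so that a difference of 1 is at least a doubling before shrinkage and low genes are drawn together most. The table holds no counts and the depth of each line is unknown. As background for what follows, the fibroblast label was met by the highest of 11 fibroblast markers, while others were low. Col1a1 had the highest average (20.88, between 20.31 and 21.41 in the clonal lines) and Vim lay between 17.79 and 18.46. Fap had the lowest average, with 3.85 to 5.89 in MEF-1 and 2.51 to 3.76 in MEF-2 clonal lines. Thy1 was at 2.72 to 3.43 in MEF-1 and 3.42 to 8.02 in MEF-2. The summed level of the 11 overlapped between the sets (21.72 to 22.20 in MEF-1 and 21.49 to 22.17 in MEF-2 clonal lines, log2), with 5 of them lower and 1 higher in MEF-2, Dcn by −4.74 and Lum by −3.68. As a linear sum it is set by the highest genes and says little on the low ones. Of 8 leukocyte markers, Cd3e, Adgre1 and Spi1 stayed below 0 in every clonal line, and the summed level was 6.79 to 7.78 in MEF-1 and 6.73 to 8.53 in MEF-2 (1 higher, Csf1r, and 1 lower, Lyz2).

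For 5 of the members called below, of which Itga5, Itgav and Itgb1 were higher and Itga1 and Itga10 lower in MEF-2 clonal lines (the call of Itgb1 depends on single lines), the stretch of 150 bases before the transcription start in the RefSeq promoter table (GRCm38.p6) is shown 5′ to 3′ on the strand of the gene, as the place from which these RNAs are transcribed and as context for a study of CpG methylation, with CpG dinucleotides in capitals:
Itga5 (chr15:103366792-103366941, minus strand): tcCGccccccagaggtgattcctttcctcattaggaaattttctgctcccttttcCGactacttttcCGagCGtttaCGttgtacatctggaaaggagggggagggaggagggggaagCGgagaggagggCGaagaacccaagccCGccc
Itgav (chr2:83724247-83724396, plus strand): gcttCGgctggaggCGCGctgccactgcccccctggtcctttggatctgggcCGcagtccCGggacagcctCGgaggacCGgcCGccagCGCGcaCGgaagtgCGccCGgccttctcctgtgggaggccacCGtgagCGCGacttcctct
Itgb1 (chr8:128685504-128685653, plus strand): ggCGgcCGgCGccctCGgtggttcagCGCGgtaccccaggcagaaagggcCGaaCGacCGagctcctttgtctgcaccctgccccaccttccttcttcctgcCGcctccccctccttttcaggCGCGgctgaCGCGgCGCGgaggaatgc
Itga1 (chr13:115101965-115102114, minus strand): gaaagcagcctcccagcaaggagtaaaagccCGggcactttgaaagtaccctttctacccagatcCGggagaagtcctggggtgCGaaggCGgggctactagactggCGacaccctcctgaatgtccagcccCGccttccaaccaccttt
Itga10 (chr3:96645434-96645583, plus strand): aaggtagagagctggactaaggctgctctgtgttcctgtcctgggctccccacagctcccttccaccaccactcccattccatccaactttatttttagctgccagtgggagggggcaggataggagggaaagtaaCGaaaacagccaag

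CpG content varied among these stretches. Itgb1 and Itgav each held 16 CpGs, Itga5 8, Itga1 6 and Itga10 1. In the table's windows of 300 bases (250 before and 50 after the start), 8 of the 20 members with a window within 1000 bases of their annotated start had an observed over expected CpG ratio above 0.6, compared with 35.8% of all 32851 windows. The letters GGGCGG, read on both strands, were found in 11 of the 20 windows (Itga5 and Itgb1 among them) and in 35.7% of all windows, CATTCC in 2 (Itgb1, Itga10) and 14.7%, TGANTCA in 1 (Itgax) and 7.81%, and TATAAA in 0 and 13.6%. For Itga6, Itga7, Itgad, Itgae, Itgal, Itgb2, Itgb3, Itgb4 and Sdc2 no window was used, and the entry of Itga9 lies 105002 bases inside the gene and was left out.

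Whole chromosomes also differed. The median over expressed genes of chromosome 12 was −0.36 to −0.31 in MEF-1 and 0.29 to 0.33 in MEF-2 clonal lines (log2, around the average of the clonal lines), which bears on Sdc1 and Itgb8, and that of chromosome 18, which holds no member, was −0.51 to −0.47 in MEF-1 clonal lines 1, 4 and 5 against 0.05 to 0.15 in the other 4. That of chromosome 19, which holds no member but some genes of the partner lists, was 0.14 to 0.21 in MEF-1 and −0.24 to −0.17 in MEF-2 clonal lines.

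The comparison of the clonal sets asks which members differ between MEF-2 and MEF-1. With limma over 15285 protein-coding genes, 15 of the 30 members passed an adjusted p of 0.05 (50%, against 56.1% of all genes tested). Of these, 5 were higher in MEF-2 (16.7%, against 27.5%) and 10 lower (33.3%, against 28.6%), and the median difference was −0.21 over the members and −0.00 over all genes. In 5 members (Itga9, Itga6, Itgb3, Itga1 and Sdc2) the values of the sets did not overlap (16.7%, against 25.9% of genes). As deposited, both the share called and the share without overlap lay below that of all genes, but the former depended on centring. Leaving out 1 clonal line at a time gave between 12 and 17 called members. Without MEF-1 clonal lines 1, 4 and 5, 13 members passed, 3 of them higher, and 7733 of the 15285 genes. With each chromosome set to the same median in every line, 17 members passed, of which 3 were higher and 14 lower. In that fit 8633 of the 15285 genes passed, so that the share of members called was not below that of all genes. With each line set to the same median over autosomal genes, 17 members passed (4 higher and 13 lower) and 8573 genes, again without a lower share.

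**Figure D1:**
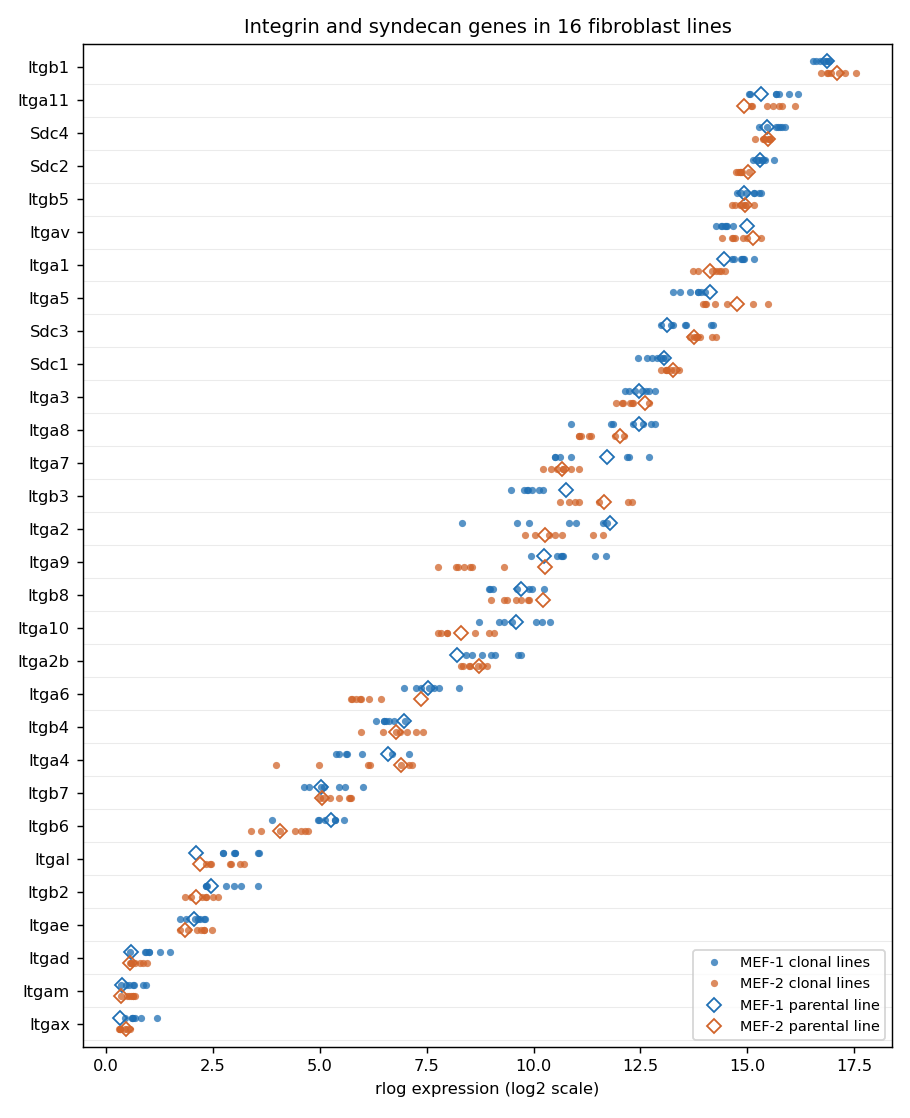
The rlog value of the 30 members (log2 scale, horizontal axis) is plotted for the 7 clonal lines (points) and the parental line (diamond) of MEF-1 (blue) and MEF-2 (orange), with genes ordered by their average and not corrected for length. The sets stand apart without overlap for Itga9, Itga6, Itgb3, Itga1 and Sdc2, and the leukocyte alpha subunits lie at the bottom with Itgb2.

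Among RGD-binding alpha subunits, 2 of 4 were higher in MEF-2, 1 lower and 1 not called. Itga5, the alpha chain of the classical fibronectin receptor (chr15:103344286-103366763), lay between 13.26 and 14.02 in MEF-1 clonal lines (median 13.85) and between 13.96 and 15.47 in MEF-2 (median 14.24), which is a difference of 0.77 ± 0.23 (SE, n = 7 and 7, limma adjusted p = 0.00985). The sets touched only between the highest MEF-1 line (line 5, 14.02) and the lowest MEF-2 lines, line 3 at 13.96 and line 6 at 14.00. Itgav, which pairs with several beta subunits and serves in the activation of latent TGF-beta, had values of 14.26 to 14.67 (median 14.47) in MEF-1 and 14.42 to 15.32 (median 14.70) in MEF-2, a difference of 0.35 ± 0.11 (adjusted p = 0.0168), and did not pass without MEF-1 clonal lines 1, 4 and 5 (0.35 ± 0.15, adjusted p = 0.0683).

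Itga8, whose product binds nephronectin during kidney development, ran the other way. It lay between 10.88 and 12.85 (median 12.32) in MEF-1 and between 11.07 and 12.11 (median 11.30) in MEF-2, a difference of −0.73 ± 0.28 (adjusted p = 0.0362) with wide overlap. Its call was lost without any one of MEF-1 lines 1, 2, 4 and 5 or MEF-2 lines 1, 2, 3, 5 and 6 (differences of −0.72 to −0.61, adjusted p of 0.056 to 0.0762), and without MEF-1 lines 1, 4 and 5 together the difference was −0.36 (adjusted p = 0.325). Itga2b, the platelet alphaIIb chain, was measured at 8.41 to 9.71 in MEF-1 and 8.30 to 8.92 in MEF-2 (−0.45 ± 0.20, adjusted p = 0.0636), and the call was gained without MEF-1 line 4, MEF-1 line 6 or MEF-2 line 7 (−0.55 to −0.50, adjusted p of 0.0216 to 0.0494). The other platelet genes examined were far lower, with Gp1ba at −2.06 or lower and Gp9 at −1.25 or lower in every clonal line. Of the 4 platelet markers, 1 of the 2 tested differed (Pf4, lower in MEF-2), and their summed level was 3.14 to 3.84 in MEF-1 and 2.34 to 2.92 in MEF-2 clonal lines. Their part in the values of Itga2b was not tested.

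Of the 4 collagen-binding alpha subunits, 2 were lower in MEF-2 and 2 were not called. Itga1 (chr13:114953096-115101964), which with beta1 prefers basement membrane collagen IV, lay between 14.64 and 15.16 (median 14.89) in MEF-1 and between 13.74 and 14.48 (median 14.28) in MEF-2, a difference of −0.69 ± 0.11 (adjusted p = 1.39e-04). Every MEF-2 line was below every MEF-1 line, the closest being MEF-1 line 4 at 14.64 and MEF-2 line 6 at 14.48. Itga10 (chr3:96645584-96664519), a collagen receptor chain best known from cartilage, was at 8.72 to 10.39 (median 9.49) in MEF-1 and 7.76 to 9.07 (median 7.97) in MEF-2, with a difference of −1.31 ± 0.29 (adjusted p = 0.00128). MEF-2 lines 3 and 6, at 8.95 and 9.07, reached into the MEF-1 range above its line 7. For Itga11, the fibrillar collagen receptor chain of fibroblasts, the sets covered the same range (15.03 to 16.19 and 15.08 to 16.12, difference −0.06 ± 0.20, adjusted p = 0.818). Itga2, which also binds fibrillar collagen, varied more within the sets than between them, from 8.31 in MEF-1 line 7 to 11.72 in MEF-1 line 4 (difference between sets 0.20 ± 0.48, adjusted p = 0.743).

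Of the laminin-binding alpha subunits, Itga6 was lower in MEF-2 and Itga3 and Itga7 were not called. Itga6 (chr2:71745616-71858416), a laminin receptor chain used as a marker of epithelial and stem cells, lay between 6.97 and 8.24 (median 7.56) in MEF-1 and between 5.74 and 6.43 (median 5.95) in MEF-2, with a difference of −1.57 ± 0.18 (2.97-fold on the rlog scale, adjusted p = 4.08e-06). The highest MEF-2 clonal line (line 2) was below the lowest MEF-1 line (also line 2). Of 6 epithelial markers, 0 of the 4 tested differed in limma (0 also at an unadjusted p under 0.05), and Krt5 stayed below −1.54 in every clonal line. Cdh1 was the highest, at 6.86 to 8.41 in MEF-1 and 6.50 to 8.37 in MEF-2 clonal lines, and Epcam reached 4.45. The summed level overlapped (6.98 to 8.51 in MEF-1 and 6.73 to 8.43 in MEF-2 clonal lines), and as a linear sum it mostly reflects Cdh1. Itga3 was at 12.14 to 12.85 and 11.94 to 12.70 (−0.25 ± 0.12, adjusted p = 0.0973), and passed without MEF-1 line 1 or MEF-2 line 7 (−0.33 to −0.31, adjusted p of 0.0221 to 0.0441).

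Itga7, the laminin receptor chain of muscle, did not pass (−0.73 ± 0.34, adjusted p = 0.083), and its values fell into a low and a high range within MEF-1. MEF-1 lines 1, 4 and 5 were at 12.19, 12.71 and 12.23, while lines 2, 3, 6 and 7 lay between 10.49 and 10.86, the latter within the MEF-2 range of 10.21 to 11.07. The difference passed without MEF-1 line 3 or line 6 (−0.87 and −0.88, adjusted p of 0.0442 and 0.0424) and was 0.02 ± 0.15 without MEF-1 lines 1, 4 and 5. Of the skeletal muscle markers, Des was at 3.54, 4.12 and 3.33 in MEF-1 lines 1, 4 and 5 and between 2.56 and 3.71 in the other 4, highest in line 4 like Itga7. Myh3 went the other way, lowest in line 4 (0.99) and between 1.16 and 1.57 in the other MEF-1 clonal lines. The part of these genes in the Itga7 values was not tested. Myod1 stayed below −1.59 in every clonal line. Between the sets, 0 of the 2 markers tested (of 4) differed in limma (0 also at an unadjusted p under 0.05), with a summed level of 3.18 to 4.33 in MEF-1 and 3.51 to 4.58 in MEF-2.

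Itga9 had the largest difference of all members. Its product pairs with beta1 and binds tenascin-C, osteopontin and VCAM-1. The gene (chr9:118606690-118901003) was at 9.95 to 11.70 (median 10.66) in MEF-1 and at 7.77 to 9.31 (median 8.37) in MEF-2 clonal lines, a difference of −2.39 ± 0.26 (5.23-fold on the rlog scale, adjusted p = 2.60e-06). The related Itga4, whose product binds fibronectin and VCAM-1, did not differ beyond its spread (0.08 ± 0.47, adjusted p = 0.897). It varied more among the MEF-2 clonal lines than any other member did, from 3.97 in line 5 to 7.15 in line 3. Among the ligands of these chains, Vcam1 was also lower in MEF-2 (−1.34 ± 0.34, adjusted p = 0.00415), while tenascin-C (Tnc) was measured at 16.35 to 16.72 in MEF-1 and 15.76 to 16.83 in MEF-2 and osteopontin (Spp1) at 13.24 to 14.92 and 13.39 to 16.55, neither past the threshold.

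The 5 leukocyte alpha subunits had the lowest averages of the alpha genes (rlog, not per length). Itgam, Itgax and Itgad lay between 0.31 and 1.49 in all clonal lines, with 4, 5 and 6 of the 16 lines within 0.05 of the lowest value of the gene. Itgax passed the test (−0.32 ± 0.10, adjusted p = 0.0157), with values of 0.43 to 1.19 in MEF-1 and 0.31 to 0.55 in MEF-2, a difference at a level where a shrunken value can hardly be told from the absence of reads. Itgad did not pass with all lines (−0.30, adjusted p = 0.0563) but did without MEF-1 line 1 or MEF-2 line 7 (−0.37 and −0.34, adjusted p of 0.0123 and 0.0415). Itgal was measured at 2.34 to 3.58 and Itgae at 1.72 to 2.47 in the clonal lines, neither called. Itgb2, the beta2 partner of all of these but alphaE, passed (−0.52 ± 0.20, adjusted p = 0.0367; 2.33 to 3.55 in MEF-1 and 1.85 to 2.62 in MEF-2), but not without any one of MEF-1 lines 1, 3, 4 and 7 or MEF-2 lines 1, 2 and 3 (−0.52 to −0.39, adjusted p of 0.0542 to 0.0746).

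Of the beta subunits, Itgb3 and Itgb1 were higher in MEF-2, Itgb6 and Itgb2 lower, and 4 were not called. Itgb3 (chr11:104608000-104670476), which with alphav binds vitronectin, fibronectin and osteopontin, lay between 9.47 and 10.21 (median 9.88) in MEF-1 and between 10.61 and 12.30 (median 11.06) in MEF-2, a difference of 1.46 ± 0.25 (2.76-fold on the rlog scale, adjusted p = 1.54e-04). Every MEF-2 line was above every MEF-1 line, and MEF-2 lines 2 and 7, at 12.30 and 12.20, stood above the other 5. Itgb1, the common partner of most alpha chains, covered a narrow range of 16.54 to 16.92 in MEF-1 and 16.71 to 17.53 in MEF-2 (0.30 ± 0.12, adjusted p = 0.0444). The call of Itgb1 was lost without any one of MEF-1 lines 1, 2, 4, 5 and 7 or MEF-2 lines 2, 4, 5 and 7 (0.22 to 0.32, adjusted p of 0.0507 to 0.0891), and in the chromosome-centred fit (0.25, adjusted p = 0.0725).

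Itgb6, the epithelial partner of alphav in TGF-beta activation, was low in both sets, at 3.87 to 5.57 (median 5.11) in MEF-1 and 3.40 to 4.73 (median 4.42) in MEF-2 (−0.82 ± 0.27, adjusted p = 0.0186). Itgb5, a vitronectin receptor chain, was measured at 14.75 to 15.32 and 14.64 to 15.16 (−0.19 ± 0.10, adjusted p = 0.117). It passed without MEF-1 line 6 (−0.24, adjusted p = 0.0415), the line with its lowest MEF-1 value. Itgb8, which also serves TGF-beta activation, showed no difference as deposited (−0.00 ± 0.22, adjusted p = 0.997). As it lies on chromosome 12, its chromosome-centred difference was −0.64 ± 0.22 (adjusted p = 0.0234), so that Itgb8 lay below its chromosome in MEF-2 relative to MEF-1. Itgb4, of hemidesmosomes, lay between 5.96 and 7.42 and Itgb7, of lymphocytes, between 4.63 and 6.01 in the clonal lines, both without a call.

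Among the syndecans, Sdc2 and Sdc4 were lower and Sdc1 higher in MEF-2 as deposited. Sdc2 (chr15:32920723-33034935), the syndecan typical of fibroblasts, lay between 15.13 and 15.62 (median 15.33) in MEF-1 and between 14.74 and 15.04 (median 14.83) in MEF-2, with a difference of −0.48 ± 0.07 (adjusted p = 3.94e-05) and no overlap. Sdc1 (chr12:8771323-8793715), which is best known from epithelia and plasma cells, was 0.34 ± 0.09 higher as deposited (12.45 to 13.07 and 12.98 to 13.39, adjusted p = 0.00671) but −0.30 ± 0.09 (adjusted p = 0.0144) after chromosome-centring, since the difference of chromosome 12 was larger than its own. The direction for Sdc1 thus depends on whether the gene is read against all genes or against its chromosome.

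Sdc4, a focal adhesion component that binds fibronectin with alpha5beta1, differed little, with 15.28 to 15.87 in MEF-1 and 15.19 to 15.53 in MEF-2 (−0.24 ± 0.09, adjusted p = 0.0347). Its call was lost without any one of MEF-1 lines 1, 3, 5, 6 and 7 or MEF-2 lines 3, 4, 5 and 6 (−0.24 to −0.20, adjusted p of 0.0523 to 0.0717) and after chromosome-centring (−0.17, adjusted p = 0.141). Sdc3 was measured at 12.98 to 14.19 and 13.67 to 14.26 (0.36 ± 0.18, adjusted p = 0.0996), and passed without MEF-1 line 2 or line 3 (0.46 and 0.45, adjusted p of 0.0261 and 0.0325), the MEF-1 lines with the highest values.

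**Figure D2:**
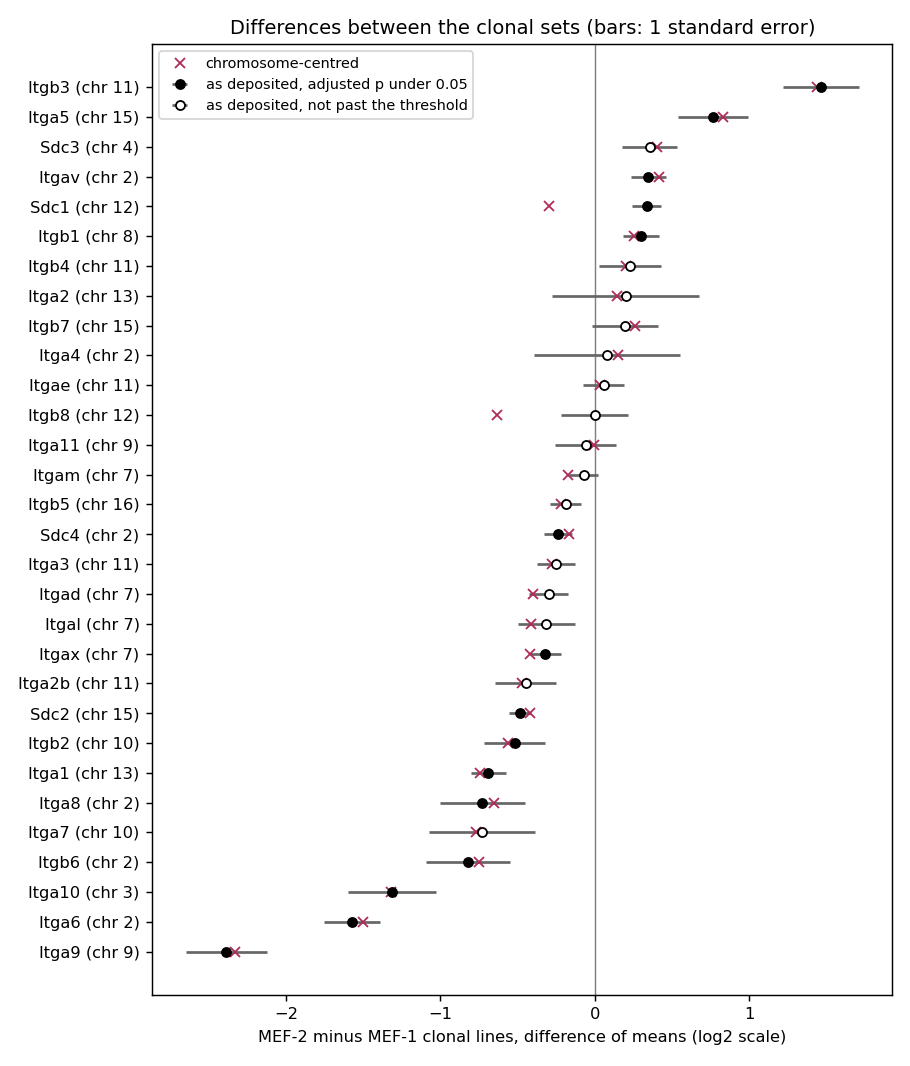
Difference of the means of the 7 MEF-2 and 7 MEF-1 clonal lines for each member (log2 scale of the rlog values, with 1 standard error), filled where the limma adjusted p was under 0.05, with crosses for the same difference after each chromosome was set to its average median in every line. The range is from −2.39 for Itga9 to 1.46 for Itgb3, and Sdc1, on chromosome 12, changes from 0.34 to −0.30 and Itgb8 from −0.00 to −0.64 on centring, while most members move little.

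The members varied more among clonal lines than the typical gene did. The median SD was 0.32 over members and 0.20 over genes tested in MEF-1, and 0.28 and 0.16 in MEF-2. A range of 1 or more across the 7 clonal lines was found for 14 of 30 members in MEF-1 (46.7%, against 24.2% of genes) and for 10 in MEF-2 (33.3%, against 18.1%). The 7 members Itga2, Itga4, Itga8, Itga9, Itga10, Itga11 and Itgb6 did so in both sets, Itgb2, Itgb7, Itgb8, Itga2b, Itga6, Itga7 and Sdc3 in MEF-1, and Itga5, Itgb3 and Itgb4 in MEF-2. The widest were Itga2 in MEF-1 (3.40) and Itga4 in MEF-2 (3.18). These counts compare members with all genes at any level and were not tested.

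In MEF-2, the same clonal lines were often on top. Lines 2 and 7 were the highest pair for 10 of 30 members (33.3%, against 22.3% of all genes), namely Itga5, Itgav, Itga2b, Itgb1, Itgb3, Itgb5, Itgb6, Sdc1, Sdc3 and Sdc4. For Itga5 they were at 15.12 and 15.47, against 13.96 to 14.52 in the other 5 lines. For the cytoplasmic proteins that link integrins to actin, it was 19 of 35 genes (54.3%), among them Vcl (17.28 and 17.52) and Flna (18.97 and 19.07). The share was 50% for membrane partners of integrins (5 of 10) and 46.7% for integrin ligands (7 of 15). For genes of heparan sulfate synthesis and syndecan function it was 23.1% (6 of 26). The same lines were low in Itga1 (13.85 and 13.74) and Itga11 (15.08 and 15.10), which had their lowest values there. This pair of lines was noticed in the values and is given as a description without a test.

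Within MEF-1, lines 1, 4 and 5, which have the low chromosome 18 median, stood apart from the other 4 lines in 7 members (23.3%, against 13.4% of all genes), although no member lies on that chromosome. They were above in Itga7, in Itgal by the smallest of margins (3.58, 3.01 and 3.56, against 2.73 to 3.00), in Itga4 (6.68, 5.99 and 7.10, against 5.37 to 5.63) and Sdc1 (13.07, 13.04 and 12.98, against 12.45 to 12.88). They were below in Itgb8 (8.96, 8.98 and 9.06, against 9.61 to 10.25), in Sdc3 (13.25, 13.21 and 12.98, against 13.55 to 14.19) and in Itga11 (15.66, 15.03 and 15.06, against 15.67 to 16.19). The MEF-1 parental line had a chromosome 18 median of −0.15. It was within the range of lines 1, 4 and 5 for Sdc3 (13.12), Itga4, Sdc1 and Itga11. For Itgb8 (9.72) it was with the other 4 lines, for Itga7 (11.72) between the ranges, and for Itgal below all 7 clonal lines. The part of the chromosome in these values was not tested.

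**Figure D3:**
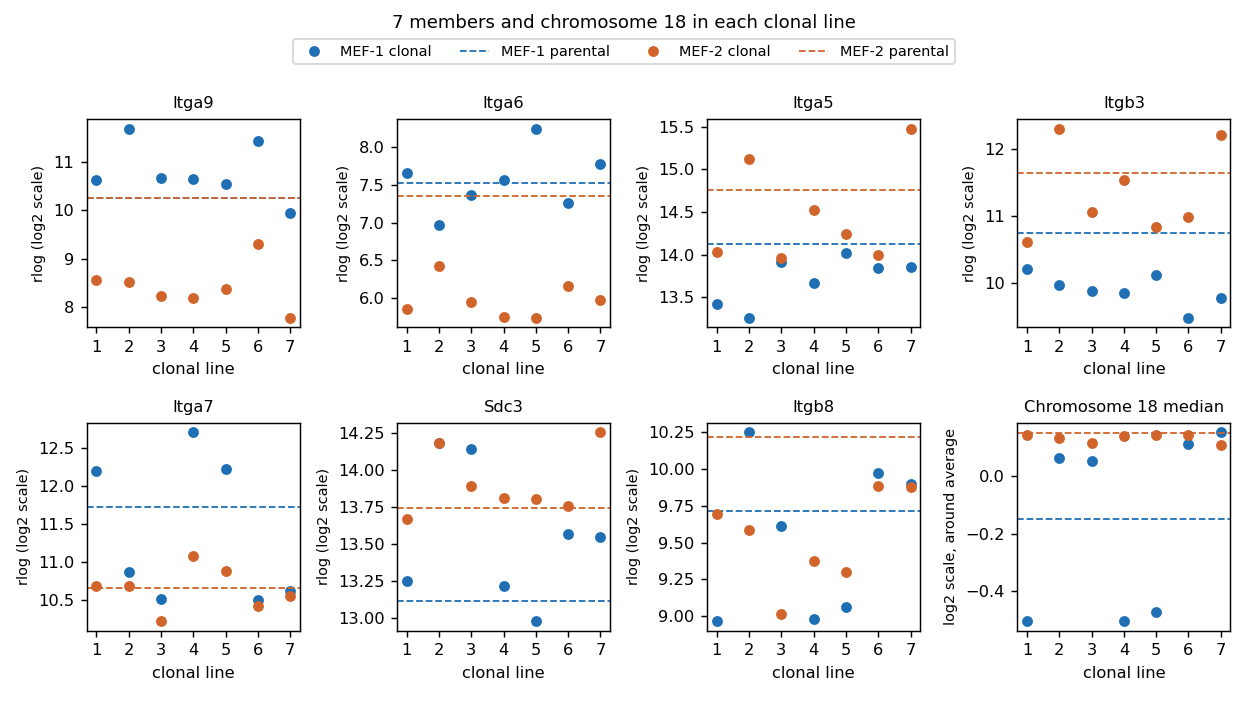
rlog value (log2 scale) of 7 members and the chromosome 18 median (log2, around the average of the clonal lines) in clonal lines 1 to 7 of MEF-1 (blue) and MEF-2 (orange), with dashed lines for the parental lines. The parental lines coincide at 10.25 and 10.26 for Itga9 while every MEF-2 clonal line is below, MEF-2 lines 2 and 7 are high for Itga5 and Itgb3, and MEF-1 lines 1, 4 and 5 are high for Itga7 and low for Sdc3, Itgb8 and chromosome 18. For Itgb8, on chromosome 12, the difference of the sets is −0.00 as deposited and −0.64 when centred.

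Single clonal lines also carried shifts of other chromosomes, and members on them moved with the shift in part. A chromosome median differed from the median of the other 6 lines of its set by at least 0.1, a limit chosen with the values in view, in 18 instances outside chromosome 18, and in 7 of these the chromosome held members above the 40th percentile of the average. In these 22 pairs of member and line, 15 differed in the direction of the shift (68.2%, against 75% of the genes on these chromosomes), and 13 had their extreme value in that line (59.1%, against 41.7%). Chromosome 2 was lower in MEF-2 line 3 by 0.26, and there Sdc4 (15.19), Itga8 (11.07), Itgb6 (3.40) and Itgav (14.42) had their lowest MEF-2 values, whereas Itga4 had its highest (7.15). Chromosome 16 was lower in MEF-1 line 6 by 0.21, and Itgb5 was lowest there. Chromosome 15 was 0.19 higher in MEF-1 line 5, where Itga5 (14.02) and Sdc2 (15.62) were highest. Chromosome 8 was lower in MEF-1 line 1 by 0.16, and Itgb1 was lowest there (16.54). As the genes define the shift of their chromosome, the shares are descriptions.

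**Figure D4:**
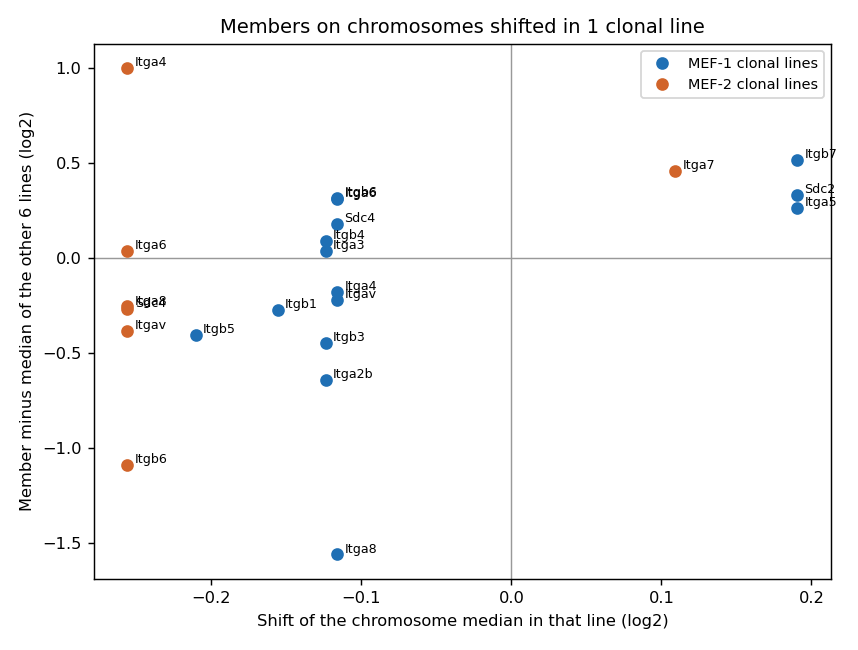
Each point is 1 member on a chromosome whose median was shifted by 0.1 or more in 1 clonal line, with the shift of the chromosome (log2, horizontal axis) and the value of the member minus the median of the other 6 clonal lines of its set (log2, vertical axis). Of the 22 points, 15 lie in the direction of the shift, and the widest deviations are Itga8 in MEF-1 line 7 (−1.56) and Itgb6 in MEF-2 line 3 (−1.09), both in its direction, and Itga4 in MEF-2 line 3 (1.00), against it.

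The comparison of clonal lines with the line they came from rests on 1 library per parental line. The parental line lay outside the range of its 7 clonal lines for 8 members in MEF-1 (26.7%, against 40.9% of genes) and for 7 in MEF-2 (23.3%, against 34.2%), below the share of all genes in both. In MEF-1, all 7 clonal lines were below the parental line for Itga2 (mean difference −1.35), Itgb3 (−0.85), Itgav (−0.52) and Itga5 (−0.41), and above it for Itgal (0.98), Itga2b (0.81), Itga1 (0.41) and Itgax (0.38). In MEF-2, all 7 were below for Itga9 (−1.84), Itga6 (−1.38) and Itgb8 (−0.69) and above for Itga11 (0.64), Itgal (0.58), Itgam (0.21) and Itgad (0.15).

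For Itga9 and Itga6, the members with the largest differences between the clonal sets, the parental lines showed little of the difference. Itga9 stood at 10.25 in parental MEF-1 and at 10.26 in parental MEF-2, within the MEF-1 clonal range and above all MEF-2 clonal lines, the highest of which, line 6, was at 9.31. Itga6 stood at 7.53 and 7.36 in the parental lines, with the MEF-2 clonal lines at 6.43 or lower. By comparison, the parental lines differed in Itgb3 (10.75 and 11.65), Itga10 (9.58 and 8.29), Itga1 (14.45 and 14.12) and Sdc2 (15.29 and 15.01) in the direction of their clonal lines. Whether a parental culture measured again would give these values cannot be told from 1 library.

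Levels can be compared between genes only per length. The rlog values were turned back to a linear scale, divided by the length of the longest annotated transcript, and given as a share of all alpha subunits, all beta subunits or all syndecans in a line. Itgb1 and Itgb5 made up nearly all beta RNA, with 72.8% ± 3.8 and 26.5% ± 3.8 (SD, n = 7) in MEF-1 and 78.4% ± 2.0 and 20.3% ± 2.1 in MEF-2, and Itgb3 0.42% ± 0.082 and 1.04% ± 0.35. The largest alpha share was Itga11 in both sets (44.4% ± 8.6 and 42.2% ± 10). Itga5 followed with 13.5% ± 3.3 and 23.1% ± 9.2, Itgav with 13.8% ± 1.0 and 17.3% ± 2.4, Itga1 with 11.8% ± 1.4 and 7.34% ± 1.9, and Itga3 with 5.28% ± 1.4 and 4.23% ± 0.55. In MEF-1, Itgav was above Itga1 in every clonal line but line 1 (13.9% and 14.1%), while Itga5 ran from 8.01% to 18.1%, across the range of both. The order of these shares was not tested.

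In MEF-2 lines 2 and 7, with this length, Itga5 had a larger share than Itga11 (34.8% and 37.8%, against 30.1% and 26%). In the MEF-2 parental line the 2 were nearly equal (28.3% and 28.1%). The other alpha genes were minor, with Itga7 reaching 8.08% in MEF-1 line 4 and the leukocyte chains together far below 1%. The order depends on the length that is used, since with the mean length of protein-coding transcripts Itgav came to 25% in MEF-1 and 31% in MEF-2, above Itga5 at 10.8% and 18.2%, and Itga11 to 35.4% and 33.3%. Sdc4 was the most abundant syndecan per length (55.8% ± 4.8 and 55.2% ± 2.2), followed by Sdc2 (31.2% ± 3.8 and 26% ± 2.4). Sdc3 (6.69% ± 2.1 and 9.67% ± 1.3) and Sdc1 (6.25% ± 1.3 and 9.09% ± 0.8) were lower. Line by line, Sdc3 was above Sdc1 in every MEF-2 clonal line, in line 6 only just (8.47% and 8.44%). In MEF-1 it was above in lines 2, 3, 6 and 7 and below in lines 1, 4 and 5. With the mean length of protein-coding transcripts, Sdc3 came to 14% and 19.4% and Sdc1 to 8.6% and 11.9%, so that the distance between them depends on the length.

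**Figure D5:**
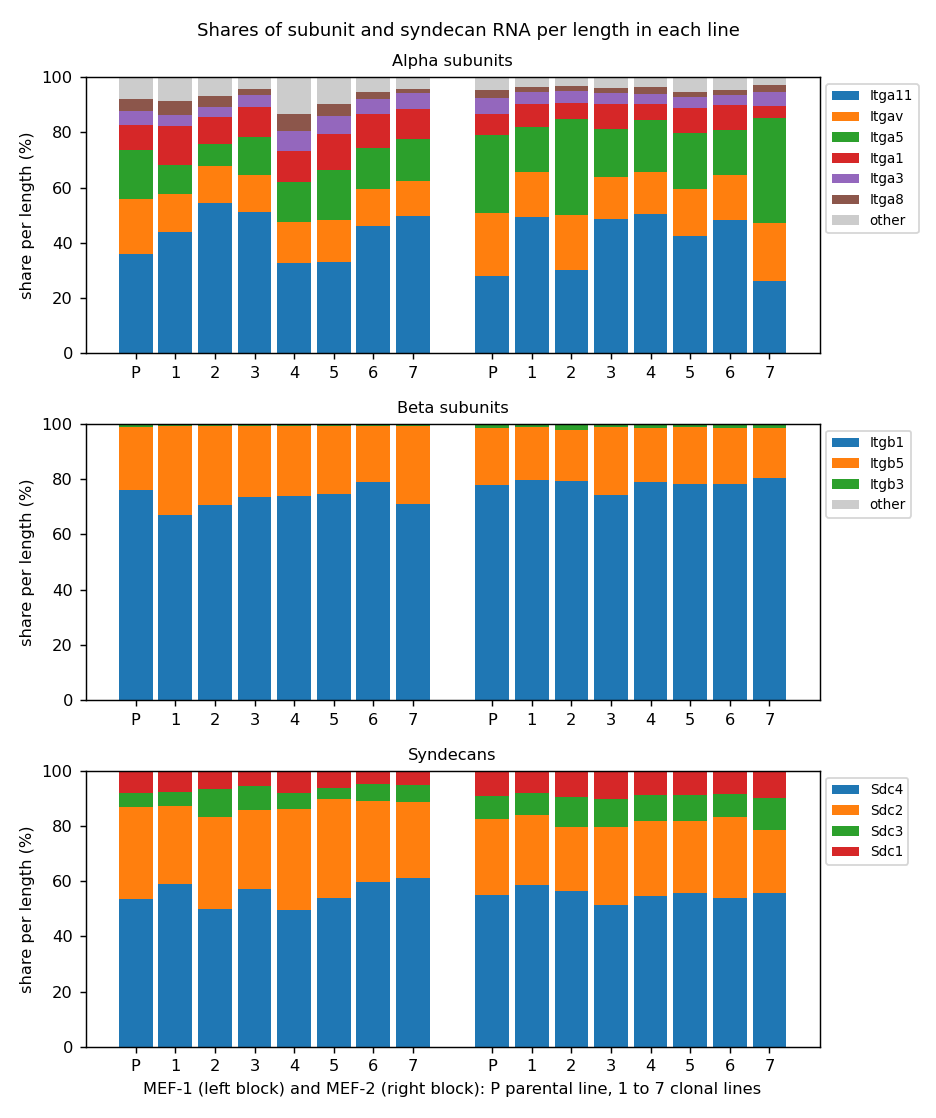
Share of each gene in the RNA per length of the alpha subunits, beta subunits and syndecans (percent of the linear rlog value divided by the longest transcript, stacked), with 1 bar for each parental (P) and clonal (1 to 7) line. Itga11 is the largest alpha share in MEF-1 and in most MEF-2 clonal lines but not in MEF-2 lines 2 and 7, where Itga5 reaches 34.8% and 37.8%. In the MEF-2 parental line Itga5 and Itga11 are nearly equal (28.3% and 28.1%). Itgb1 is the largest beta share in every line (66.9% to 80.5% in the clonal lines).

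The partners of these receptors were read from 4 lists. Of 35 proteins tested that link integrins to actin (of 37 listed), 14 were higher and 11 lower in MEF-2, with a median difference of 0.15 (40% and 31.4%, against 27.5% and 28.6% of all genes). Parvb, beta-parvin of the ILK complex (1.84 ± 0.27, limma adjusted p = 4.61e-05), and Lims2, a PINCH protein of that complex (1.42 ± 0.26, adjusted p = 3.56e-04), had the largest positive differences. Their relatives on the list, Parva (−0.08, limma adjusted p = 0.341) and Lims1 (0.13, adjusted p = 0.225), were not called. These had higher averages (14.87 and 14.07) than Parvb (7.29) and Lims2 (10.61), in rlog and not per length. Lims2 lies on chromosome 18. Kank1 and Fermt3, both lower, lie on chromosome 19 and had differences of −1.09 and −0.78, or −0.72 and −0.41 when centred. The tensins Tns3 (−1.52 ± 0.16, adjusted p = 2.10e-06) and Tns1 (−1.34 ± 0.21, adjusted p = 9.92e-05), which bind beta tails at fibrillar adhesions, were the lowest.

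Of the integrin ligands, 5 of 15 tested (of 18 listed) were higher and 1 lower, with a median difference of 0.43 (33.3% and 6.67%, against 27.5% and 28.6% of all genes). Tgfb3 (1.32 ± 0.17, adjusted p = 1.48e-05, and 0.68 when centred on its chromosome 12) and the basement membrane protein Nid1 (0.98 ± 0.18, adjusted p = 2.79e-04) were the highest, and Vcam1 the one that was lower. Fibronectin itself (Fn1), the ligand of alpha5beta1, did not pass (20.27 to 21.03 in MEF-1 and 20.43 to 21.36 in MEF-2, adjusted p = 0.401). Of 10 membrane partners, 0 were higher and 4 lower (40% called, against 56.1% of all genes, with a median difference of −0.15), led by the tetraspanins Cd82 (−0.82 ± 0.19, adjusted p = 0.00178) and Cd9 (−0.62 ± 0.13, adjusted p = 7.14e-04). Slc3a2, another of the 4, lies on chromosome 19 and did not pass in the chromosome-centred limma fit (−0.12, adjusted p = 0.455). That fit also had 0 higher and 4 lower, with Cd47 (−0.20, adjusted p = 0.0236) in place of Slc3a2. In limma 0 partners were higher, also at an unadjusted p under 0.05.

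Of 26 genes of heparan sulfate synthesis and syndecan function, 8 were higher and 8 lower, with a median difference of −0.01 (30.8% each way, near the 27.5% and 28.6% of all genes). The epimerase Glce (0.77 ± 0.14, adjusted p = 3.15e-04) and the sheddase Adam17 (0.76 ± 0.04, adjusted p = 7.54e-10, and 0.13 when centred on its chromosome 12) were the highest. Xylt1, which starts the chain (−1.23 ± 0.21, adjusted p = 1.95e-04), and Ext2, of the polymerase (−0.69 ± 0.07, adjusted p = 1.43e-06), were the lowest. B3gat3, on chromosome 19 and lower as deposited (−0.48), did not pass when centred (−0.10, limma adjusted p = 0.071). All 4 endothelial markers were tested and 1 differed (Kdr, lower in MEF-2), with a summed level of 5.02 to 6.37 in MEF-1 and 5.05 to 6.83 in MEF-2 clonal lines. Tek had the highest average of them (4.94) and Cdh5 the lowest (0.43).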

How the data were processed

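Total RNA, depleted of ribosomal RNA, was sequenced from 16 lines as directional libraries with 150 bp paired-end reads. Per the labels, the authors trimmed reads with Trim Galore (0.6.0), quantified transcripts with Salmon (1.5.2) against mm10 and Ensembl release 102, and deposited log2 values from the rlog transformation of DESeq2 (1.24.0). How transcripts were summed to genes and whether rlog was blind to the groups are not given in the sources used here. Fragmentation times followed RNA integrity, which the labels do not give per sample. Without counts, the depth is unknown and no counting interval is given. The table named 16 lines, 0 of them without a matching sample.

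Genes were matched by identifier to GENCODE mouse release 21 (mm10, 1-based coordinates). limma (3.58.1, R 4.3.3, trended prior) compared 7 with 7 clonal lines over 15285 protein-coding genes with an average above 0, with Benjamini-Hochberg adjustment and calls under 0.05. Chromosome-centred values subtract from each gene the deviation of its chromosome in that line, taken over the 13123 protein-coding genes whose average exceeded their 40th percentile. Tests were checked on simulated data. The rest was done with pandas 2.3.3 and numpy 2.4.6 under Python 3.11.15, and figures with matplotlib 3.10.9.

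The members and lists were chosen with earlier results of these data known. All members are named, with values in full for those called, without overlap or with a range of 1 or more, together with, for each list, the 2 called genes that differed most in either direction and the highest and lowest markers. Other genes (Tnc, Spp1, Fn1, Vcl and Flna among them) were named after their values were seen. Alternatives covered filters, centring, variance priors, parental lines, a replicate block, range limits, transcript lengths and leaving out lines.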

Additional observations from a re-analysis of the deposited data

Results flagged for a closer look

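One value stood apart from its group. Itgb6, in MEF-1 clonal line 1, was at 3.87, whereas the nearest of the other 6 MEF-1 clonal lines was at 4.95 and their median was 5.23. The gap came to 0.636 of the range of the 7 lines, above Dixon's critical value for 7 samples. Of the 60 sets of 7 values examined (30 members in 2 sets of clonal lines) this was 1, and chance gives about 1 in 20, or 3.0. Itgb6 is a low gene, and the line is not the lowest of all 16, as MEF-2 clonal line 3 was at 3.40. Without MEF-1 line 1 the difference between the sets is −1.01 instead of −0.82.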

How the results depend on the processing

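Of 684 values of a member under an alternative, 588 kept their direction and their side of the threshold, 48 lost a call, 26 gained one and 22 changed sign. Of the 15 called members, 9 kept call and direction in every alternative run. Apart from Sdc1, which was −0.30 after chromosome-centring, changes of sign concerned members that were not called. These were Itga2 (−0.015 with parental lines included), Itgb8 (0.062 with parental lines included), Itga7 (0.023 without MEF-1 lines 1, 4 and 5, an alternative added after the data were seen), and, on leaving out 1 line, Itgae (−0.0048 to 0.12), Itga2 (−0.15 to 0.41), Itgb8 (−0.10 to 0.12), Itga4 (−0.10 to 0.43) and Itga11 (−0.16 to 0.036). Members higher in MEF-2 were 3 in place of 5 both after chromosome-centring and without MEF-1 lines 1, 4 and 5, and members without overlap were 8 in place of 5 after chromosome-centring (also added later). With a limit of 0.5 or 2 in place of 1, 27 or 2 members in MEF-1 and 24 or 1 in MEF-2 had such a range. Clone numbers do not pair the lines, as same-numbered lines correlated by −0.133 to 0.200 and 1 of 7 MEF-1 lines correlated best with its own number. The fit with a replicate block called 8226 genes and 15 members, losing Itgb2, Sdc4 and Itgb1 and gaining Itga7, Sdc3 and Itga2b. The cause of these changes was not tested. rlog shrinkage and unknown depth limit statements on genes near the level without reads.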

Other observations

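Among the partners of integrins, some genes varied widely among the clonal lines (chosen after their values were seen). Apbb1ip, the RIAM adaptor that brings talin to integrins, ran from 5.20 to 9.61 in MEF-1 and from 5.15 to 9.56 in MEF-2 clonal lines, without a call between the sets. Npnt, nephronectin and the ligand of alpha8beta1, ran from 14.15 to 16.25 and from 13.81 to 17.44. Thy1, a fibroblast surface protein that binds integrins, was at 2.72 to 3.43 in MEF-1 and 3.42 to 8.02 in MEF-2 clonal lines, while the parental lines were above all their clonal lines, at 6.12 and 10.22.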
